A study of Danio rerio with 32 samples.

Results

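The genes described here are the nuclear genes for subunits of the mitochondrial respiratory chain and ATP synthase. They were taken by symbol: nduf followed by a, b, c, s or v and a number, sdha to sdhd, uqcr, cyc1, cox4 to cox8 and atp5. Assembly factors with related names were left out, 4 sdhaf genes among them. This gave 84 of the 22686 genes in the table, of which 30 belong to complex I, 4 to complex II, 9 to complex III, 22 to complex IV and 19 to complex V. The 22 genes of complex IV include ndufa4a and ndufa4l2a, since NDUFA4 is a subunit of that complex in mammals. Another 12 zebrafish symbols of this kind were not matched to a gene in the table and were not analysed here. Among them was sdhc, so the genes of complex II lack that subunit. Single genes were taken by symbol and not by their expression values, but the set was chosen with earlier results of these data known.

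The samples were pools of 9 whole larvae of the Tropical 5D zebrafish line. All embryos were dechorionated and kept in embryo medium, exposed without renewal from 6 hpf (hours post fertilization) to retene in DMSO or to DMSO alone, and collected at 48 hpf. Retene is a polycyclic aromatic hydrocarbon that activates the aryl hydrocarbon receptor. There were 8 groups of 4 pools each, the DMSO vehicle control and 7 concentrations of retene: 0.205 µM and 0.512 µM, then 1.28 µM and 3.2 µM, and above these 8 µM, 20 µM and 50 µM. Only fish that looked normal were pooled. A pool of whole larvae gives 1 value for all tissues together.

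The respiratory chain sits in the inner mitochondrial membrane. Complex I takes electrons from NADH and complex II from succinate, complex III passes them to cytochrome c, and complex IV hands them to oxygen. Complexes I, III and IV pump protons as they do so, and complex V, the ATP synthase, uses the returning protons to make ATP. Most subunits are encoded in the nucleus, a small core is encoded in mitochondrial DNA, and complex II is wholly nuclear. Energy-demanding tissues such as muscle, heart and brain are rich in these transcripts.

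Reads on genes numbered from 7720701 to 8656870 per pool, and the 84 genes took 76854 to 96330 of them, or between 0.955% and 1.15% of the normalized counts. The values tested are on the deposited log2 scale, on which Log2FC is close to a log2 ratio for genes with many reads and smaller than it for genes with few. Exposure was visible in cyp1a, the classical target of the aryl hydrocarbon receptor, whose Log2FC was 0.64 at 0.205 µM (adjusted p = 0.656) and 7.57 at 50 µM (adjusted p = 5.78e-22). Control replicate 2, 8 µM replicate 4 and 50 µM replicate 2 stood apart in an earlier analysis of these data. Their root mean square deviation from the group mean over genes was 0.182, 0.198 and 0.153, while 50 µM replicate 4, at 0.165, deviated more than 50 µM replicate 2. Control replicate 2 was low for the respiratory chain: it had the lowest value of the 4 control pools for 68 of the 84 genes, against 30.6% of all genes, and the smallest share of counts on these genes of any pool (0.955%, against 1.05% in each of the other 3 control pools). The medians of the 84 genes and their numbers above 0 are given with and without it. Other results are given with all 4 control pools unless said otherwise.

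Few respiratory chain genes passed the test against the control, and each of them rose. With limma and an adjusted p-value under 0.05 over all genes, 0 of the 84 were DEGs (differentially expressed genes) at 0.205 µM and 0 at 0.512 µM, as were 0% of all genes at either concentration. At 1.28 µM the only DEG was ndufb7, against 0.0838% of all genes. At 3.2 µM there was again none, against 0.0838% of all genes. At 8 µM the DEG was ndufv3 (0.344% of all genes were called), and at 20 µM it was again ndufv3 (0.586% of all genes). At 50 µM both ndufv3 and ndufb7 were called, 2 of the 84 and close to the share of all genes (2.48%). A test of any difference among the 8 groups called ndufv3 and ndufa6, 2 of the 84 and near the share of all genes (1.86%). A trend over the order of the 8 groups called ndufv3 and cox7a2a, 2 of the 84 and a smaller share than that of all genes (4.95%). In these tests the number of calls does not set the 84 genes apart from all genes. The limma voom alternative called 0 respiratory chain genes at 0.205, 0.512, 1.28 and 3.2 µM and the same genes as above in the other tests. All 4 of these genes encode small or accessory subunits. Without 8 µM replicate 4, the DEGs at 8 µM numbered 6, with atp5l, atp5mj, cox6c, ndufb2 and ndufb8 beside ndufv3. The share of all genes called in that fit is not given here, so this count has no background to be read against.

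Below that threshold, the genes leaned one way. The number with a higher value and an unadjusted p-value under 0.05 was 12 at 0.205 µM (14.3% of the 84, against 3.02% of all genes), 11 at 0.512 µM (13.1% against 2.94%) and 29 at 1.28 µM (34.5% against 5.79%). It was 25 at 3.2 µM (29.8% against 4.84%) and 28 at 8 µM (33.3% against 5.46%). At 20 µM it was 4 (4.8% against 4.97%), and at 50 µM it was 15 (17.9% against 7.45%). These 7 comparisons share the same control pools, so they are not separate pieces of evidence. The lean was not particular to the respiratory chain. At 1.28 µM the same share was 62.2% of 74 cytosolic and 29.4% of 68 mitochondrial ribosomal protein genes. Among 53 assembly factor genes it was 9.4%, and among 32 glycolysis genes 6.2%. Without control replicate 2 the lean of the 84 genes was smaller, as described next, and the counts and shares above are given only with that pool.

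The 84 genes as a group sat slightly above the control at every concentration except 20 µM. Going up from 0.205 to 8 µM, the median Log2FC was 0.09, 0.09, 0.12, 0.10 and 0.11, while the median over all genes lay between -0.01 and 0.01 at each concentration. It was 0.02 at 20 µM and 0.08 at 50 µM. Between 77 and 80 of the 84 genes had a Log2FC above 0 from 0.205 to 8 µM, 48 did at 20 µM and 69 did at 50 µM. These medians are of the same size as the spread between pools, since the median over the 84 genes varied among pools of 1 group with an SD of 0.07. Normalization divided the reads of each pool by a size factor. This factor lay between 1.0135 and 1.0633 in the control and between 1.0059 and 1.0405 at 20 µM. At 1.28 µM it lay between 0.9645 and 0.9999, and at 8 µM between 0.9405 and 1.0455. The part of the size factors in these medians was not tested. In pools of whole larvae, a change in the number of cells of a type and a change in the RNA per cell cannot be told apart.

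**Figure D1:**
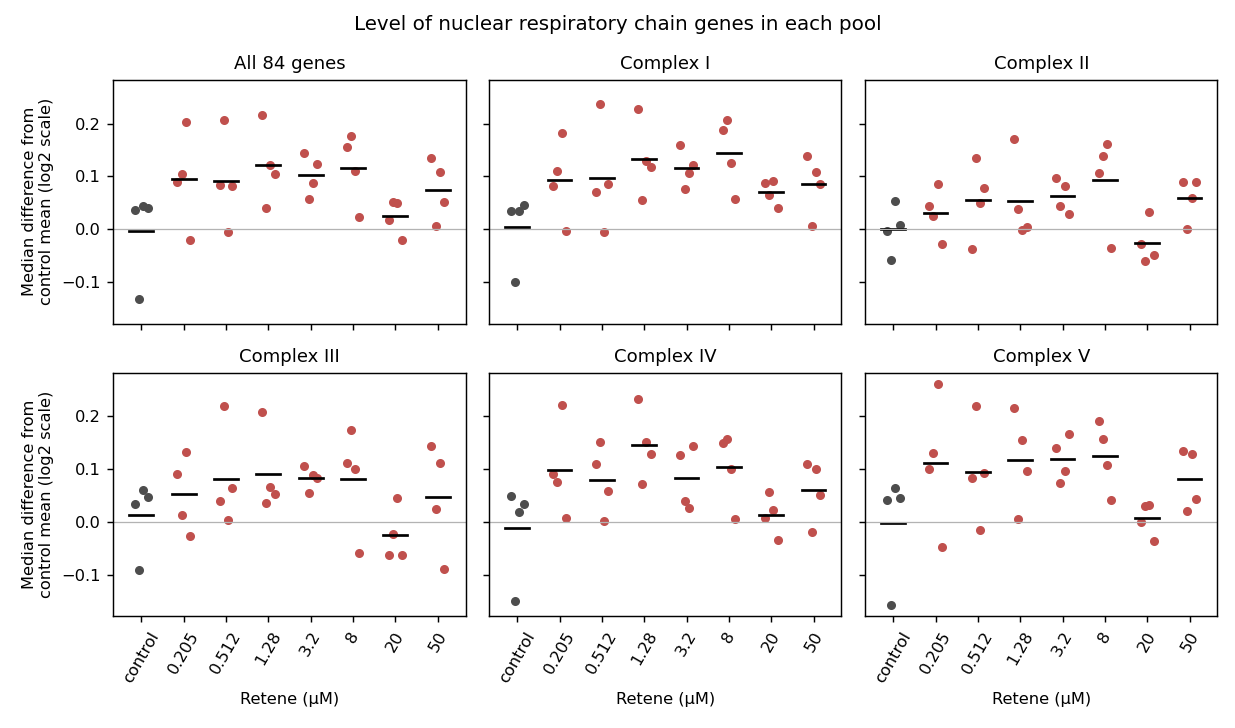
Each point is a pool (4 per group), placed by the median over the 84 genes, or over those of a complex, of its value minus the control mean on the deposited log2 scale, and the bars are the means of the 4 pools. Control replicate 2 lies at -0.13 in the panel of all 84 genes, the other 3 control pools lie at 0.04, and the pools at 20 µM lie lower than most pools at 8 µM.

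Pool by pool, the control level rested on 1 low pool. The median over the 84 genes, relative to the control mean, was 0.04, -0.13, 0.04 and 0.04 in control replicates 1 to 4. At 8 µM it was 0.16, 0.18, 0.11 and 0.02, and at 20 µM it was 0.02, 0.05, 0.05 and -0.02. The pools at 20 µM thus overlapped the 3 higher control pools, and at 8 µM all pools but replicate 4 lay above every control pool. At 50 µM the pools lay at 0.13, 0.01, 0.11 and 0.05. Without control replicate 2, the median Log2FC was 0.06, 0.05, 0.09, 0.06 and 0.09 from 0.205 to 8 µM, -0.02 at 20 µM and 0.03 at 50 µM. The number of genes above 0 was then 63, 65, 67, 69 and 71 from 0.205 to 8 µM, 33 at 20 µM and 54 at 50 µM, so the lean between 0.205 and 8 µM kept its direction without that pool and the direction at 20 µM turned.

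In 19 of the 32 pools the medians of all 5 complexes lay on the same side of their means over all pools. Each of the 5 lay above its mean in 10 pools and below it in 9. No such count was made for other gene lists, so it cannot show whether this is particular to the respiratory chain. Pools with a high level of the 84 genes were found in several exposed groups: 0.205 µM replicate 3 (0.20), 0.512 µM replicate 2 (0.21) and 1.28 µM replicate 1 (0.22) had the highest medians. The size factors of these pools were 0.9537, 0.9676 and 0.9923, while that of the low control replicate 2 was 1.0497. Control replicate 3 had a size factor of 1.0633 at a median of 0.04, and 8 µM replicate 2 had 1.0047 at 0.18. These pools are picked examples, and the relation between size factor and median over the 32 pools was not tested.

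The step down from 8 to 20 µM did not involve the control. The mean at 20 µM lay below the means at both 8 and 50 µM for 62 of the 84 genes, against 33.7% of all genes. The median difference of 20 µM minus 8 µM was -0.10, with 75 of 84 genes below 0, while 51.4% of all genes lay below 0. In a direct limma contrast of 20 against 8 µM, chosen after the values were seen, 0 of the 84 genes passed (0.0529% of all genes did) and 18 had an unadjusted p-value under 0.05 (5.68% of all genes did). From 20 to 50 µM the median difference was 0.06, 0 genes passed (0.0529% of all genes) and 7 had an unadjusted p-value under 0.05 (4.11% of all genes). Between 8 and 50 µM the median difference was -0.04, 0 genes passed (0.326% of all genes) and 6 had an unadjusted p-value under 0.05, close to the share of all genes (6.76%). Of the 84 genes, cox8a, a small subunit of complex IV, had the smallest p for 20 against 8 µM (difference -0.28 ± 0.08 SE, adjusted p = 0.502).

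Complex I held 3 of the 4 genes that were called in the tests that included the control. It also held 30 of the 84 genes, and so few calls cannot show whether it stands apart from the other complexes. The gene ndufv3, whose human counterpart encodes an accessory subunit of the NADH-oxidizing arm, was called at the most concentrations. Its normalized counts were 855, 674, 738 and 977 in the control, 1194, 1208, 1165 and 1042 at 8 µM, and 1147, 1121, 1138 and 1105 at 50 µM. The lowest pool at 8 or 50 µM was thus higher than the highest control pool. At 20 µM the counts were 1033, 1176, 1073 and 907, and replicate 4 fell within the control range. The mean was 1.42, 1.29 and 1.39 times the control mean at these 3 concentrations (8, 20 and 50 µM).

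For ndufv3 the Log2FC was 0.12, 0.11, 0.30, 0.26, 0.47, 0.34 and 0.44 from 0.205 to 50 µM, each ± 0.08 (SE, n = 4 pools per group). The adjusted p-values at the 3 highest concentrations were 0.00106, 0.0293 and 0.000584, and exact two-sided permutation tests of 4 against 4 pools gave p = 0.0286, 0.0571 and 0.0286, where 0.0286 is the smallest such a test can give. Its trend was 0.06 per step (adjusted p = 7.99e-06), and over the 7 exposed groups alone it was also 0.06 per step (adjusted p = 0.000262). With 1 pool left out, the adjusted p at 50 µM ranged up to 0.00687 and at 8 µM up to 0.0131. In a fit of only the control and 8 µM pools the call at 8 µM was lost (adjusted p = 0.212). The call at 20 µM was lost without control replicate 2 or 3 and without 20 µM replicate 1, 2 or 3, with an adjusted p of up to 0.179. The annotated neighbours of ndufv3, si:ch211-140m22.7 and pknox1.1, had a Log2FC of 0.18 (adjusted p = 0.159) and -0.04 (adjusted p = 0.825) at 50 µM, and neither overlaps it.

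**Figure D2:**
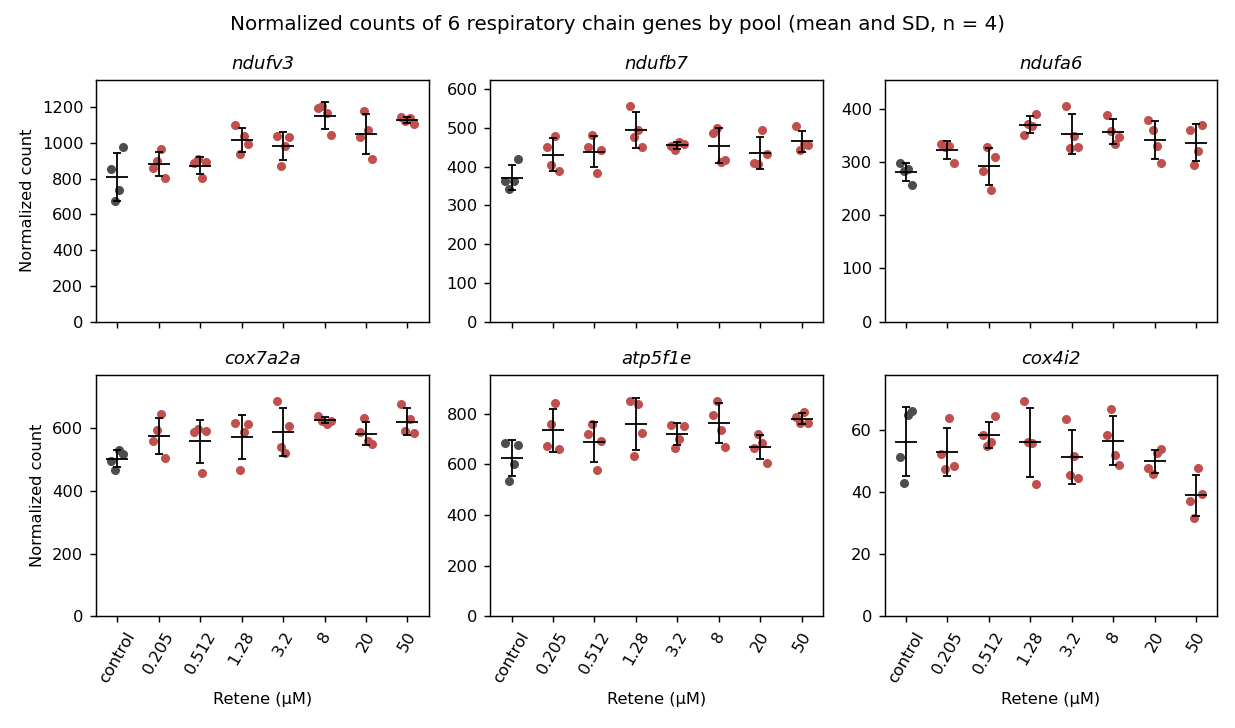
Normalized counts per pool of ndufv3, ndufb7, ndufa6, cox7a2a, atp5f1e and cox4i2 in the control and at 7 concentrations of retene, with the mean and SD of 4 pools, on axes that start at 0. All 4 pools at 8 and 50 µM exceed all control pools for ndufv3, and cox4i2 has its lowest mean at 50 µM.

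The gene ndufb7, for an accessory subunit of the membrane arm of complex I, was called at 1.28 and 50 µM. Its normalized counts were 363, 342, 362 and 419 in the control, 557, 475, 495 and 450 at 1.28 µM, and 505, 443, 458 and 456 at 50 µM. Every pool at these 2 concentrations lay above the highest control pool, and the exact permutation p was 0.0286 for both. The Log2FC was 0.34 ± 0.07 (SE) at 1.28 µM and 0.27 ± 0.07 at 50 µM, with adjusted p = 0.0499 and 0.0361. The first of these lay at the threshold and was lost in 25 of the 32 fits with 1 pool left out (adjusted p up to 0.18), and the call at 50 µM was lost in 6 of them (adjusted p up to 0.143). From 0.205 to 50 µM its Log2FC stayed between 0.17 and 0.34 with no trend past the threshold (adjusted p = 0.139). The annotated span of ndufb7 overlaps that of samd1b, whose Log2FC was 0.05 at 1.28 µM and 0.11 at 50 µM, and reads in the overlap cannot be assigned with certainty.

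The gene ndufa6, for another accessory subunit, was called in the test among the 8 groups (adjusted p = 0.0453). Its normalized counts were 298, 283, 287 and 258 in the control and 351, 371, 368 and 389 at 1.28 µM. At 1.28, 3.2 and 8 µM all 4 pools exceeded all control pools, and at 20 µM they did so as well (297.9 in the lowest pool against 297.7 in the highest control pool). The Log2FC was 0.31 ± 0.07 at 1.28 µM (adjusted p = 0.0725) and 0.20 ± 0.07 at 50 µM (adjusted p = 0.146). The call among groups was lost in 20 of the 32 fits with 1 pool left out, with adjusted p up to 0.118. The span of ndufa6 also overlaps another annotated gene, as do 21 of the 84 in all.

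At 20 µM the median Log2FC of complex I was 0.09, with 20 of its 30 genes above 0, and the medians of complexes II, III, IV and V were -0.03, -0.00, 0.02 and -0.02. The complexes were not tested against each other, and without control replicate 2 the median of complex I was 0.04. Of the other subunit genes, ndufs1, for a subunit that carries iron-sulfur clusters, had a Log2FC from -0.09 at 20 µM to 0.11 at 3.2 µM. The genes ndufs8b and ndufa8 had too few reads (means of 1.68 and 2.50 normalized counts over all pools) to read a direction.

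Complex II and complex III had 0 DEGs at any concentration, in limma or limma voom. In complex III, at most 2 of the 9 genes had an unadjusted p-value under 0.05 at a concentration, where 6.32% to 15.2% of all genes did. Succinate dehydrogenase, complex II, joins the tricarboxylic acid cycle to the chain. Its flavoprotein subunit gene sdha had normalized counts of 1605, 1560, 1697 and 1629 in the control and 1888, 1679, 1647 and 1867 at 50 µM. These groups overlapped (Log2FC 0.12 ± 0.06, adjusted p = 0.382). The iron-sulfur subunit gene sdhb had a Log2FC of 0.08 ± 0.06 at 50 µM (adjusted p = 0.602), and the counts of sdhda, a membrane anchor gene, did not exceed 6.88 in any pool (slope -0.01 per step, adjusted p = 0.548). The medians of the 4 genes of complex II lay between -0.03 and 0.08 over the 7 concentrations, and 0 of them had an unadjusted p-value under 0.05 at any concentration, which with 4 genes is close to those shares.

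In complex III, uqcr10 and uqcrh, which encode small subunits, had the smallest p-values of the complex at 50 µM. The counts of uqcr10 were 803, 753, 839 and 771 in the control, 962, 860, 1034 and 949 at 1.28 µM and 933, 806, 921 and 827 at 50 µM. All pools at 1.28 µM lay above the control pools, and at 50 µM the groups overlapped. The Log2FC of uqcr10 was 0.24 ± 0.07 at 1.28 µM (adjusted p = 0.195) and 0.12 ± 0.07 at 50 µM (adjusted p = 0.456). That of uqcrh was 0.11 ± 0.06 at 50 µM (adjusted p = 0.408). The core protein genes uqcrc1 and uqcrc2a had slopes of -0.01 per step each (adjusted p = 0.414 and 0.533), and uqcrc1 stood at -0.15 at 20 µM. The genes cyc1 (cytochrome c1) and uqcrfs1 (the Rieske iron-sulfur protein), which carry electrons, had a Log2FC of 0.06 and 0.09 at 50 µM.

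**Figure D3:**
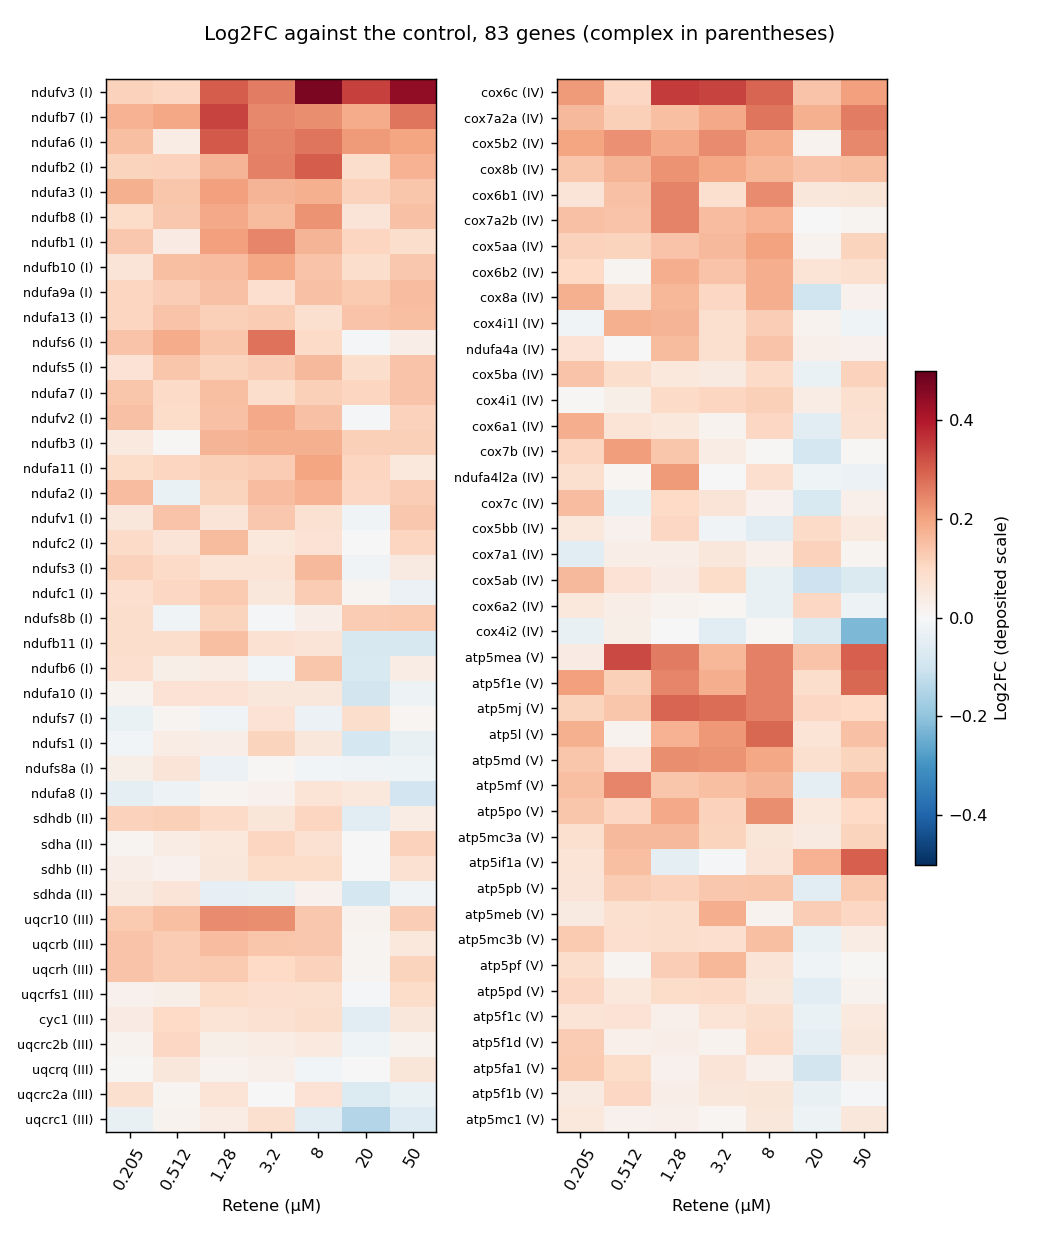
Log2FC against the control of 83 of the 84 genes at the 7 concentrations, ordered within each complex by their mean Log2FC, with red for higher and blue for lower values on a scale from -0.5 to 0.5. Most cells from 0.205 to 8 µM are pale red, the column at 20 µM is the palest, and ndufv3 at the top of complex I is the darkest row.

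In complex IV, cytochrome c oxidase, cox7a2a passed the test for a trend. It encodes a small subunit of which zebrafish has 2 copies in this table besides the related cox7a1. Its counts were 496, 466, 531 and 517 in the control, 637, 623, 613 and 623 at 8 µM, and 677, 591, 627 and 583 at 50 µM. At 8, 20 and 50 µM all pools exceeded all control pools (exact permutation p = 0.0286 each), with a Log2FC of 0.27, 0.18 and 0.26 (± 0.08 each). The adjusted p at 50 µM was 0.0854. The slope was 0.03 per step (adjusted p = 0.0494), and the call was lost in 18 of the 32 fits with 1 pool left out, with adjusted p up to 0.109, and without the 3 pools that stand apart (adjusted p = 0.107). Over the exposed groups alone the slope of cox7a2a was 0.02 per step (adjusted p = 0.429).

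The gene cox6c, for another small subunit, had the largest Log2FC of complex IV on the deposited scale, which compresses genes with few reads. On the ratio of mean counts, ndufa4l2a was 1.74 times the control at 1.28 µM, with 9.86, 15.2, 9.40 and 12.8 normalized counts in the control and 20.2, 23.0, 21.8 and 17.2 at that concentration (adjusted p = 0.285). For cox6c the ratio was 1.29. Its counts were 1404, 1131, 1339 and 1442 in the control and 1943, 1536, 1684 and 1710 at 1.28 µM, where the groups did not overlap (Log2FC 0.35 ± 0.08, adjusted p = 0.0937). It became a DEG at 1.28 µM after quantile normalization. At 20 µM its Log2FC was 0.14. The gene was not covered by the rule for named genes and was chosen after its values were seen.

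On the deposited scale, the lowest Log2FC of any of the 84 genes belonged to cox4i2, for an isoform of subunit 4 that responds to low oxygen in mammals. Its counts were 51.3, 42.9, 64.9 and 66.1 in the control and 37.1, 31.8, 47.6 and 39.5 at 50 µM. Replicate 3 at 50 µM overlapped the lowest control pool, which was replicate 2. The Log2FC at 50 µM was -0.22 ± 0.07 (adjusted p = 0.111, exact permutation p = 0.0571), and the mean count was 0.693 of the control mean, a larger change than the deposited scale shows for a gene at this level. From 0.205 to 20 µM its Log2FC lay between -0.07 and 0.03. The paralog cox4i1, for the general isoform, had a Log2FC of 0.08 at 50 µM (adjusted p = 0.657), and ndufa4l2a, whose mammalian counterpart is also raised by low oxygen, had -0.03.

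Over the 7 exposed groups without the control, 4 of the 84 genes had a trend, close to the share of all genes (4.09%). This number does not set the 84 genes apart from all genes. One was ndufv3, which rose. The other 3 fell with concentration: cox5ab and cox7b of complex IV, with -0.24 and -0.22 over the range from 0.205 to 50 µM (adjusted p = 0.0192 and 0.0446), and ndufb11 of complex I with -0.20 (adjusted p = 0.0423). The counts of cox5ab were 528, 572, 660 and 478 at 0.205 µM, 451, 479, 453 and 404 at 20 µM and 516, 462, 476 and 388 at 50 µM. The control pools of cox5ab, at 477, 416, 493 and 570, overlapped each of these groups, and its Log2FC against the control ran from 0.16 at 0.205 µM to -0.10 at 20 µM and -0.07 at 50 µM. For cox7b it ran from 0.21 at 0.512 µM to -0.09 at 20 µM and 0.01 at 50 µM. Of the 84 genes, 56 had a slope below 0 over the exposed groups, and with the control included 49 had a slope above 0.

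In no test were both paralogs of 1 subunit called, so the calls cannot show whether paralogs moved alike. The pair cox5aa and cox5ab stood at 0.11 and -0.07 at 50 µM, and cox7a2a and cox7a2b at 0.26 and 0.01. The cox7a2b counts gave 0.25 at 1.28 µM (adjusted p = 0.181). The genes cox6a2, cox7a1 and cox8b correspond to mammalian isoforms of heart and muscle. The first 2 of them had means of 9.66 and 6.76 normalized counts, and cox8b had a Log2FC of 0.15 at 50 µM (adjusted p = 0.312). The 22 genes of complex IV had a median Log2FC of 0.15 at 1.28 µM and 0.04 at 50 µM, with 21 and 17 of them above 0. Without control replicate 2 these medians were 0.11 and 0.01, with 18 and 12 genes above 0.

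Complex V had 0 DEGs at any concentration in limma, with 7 of its 19 genes at an unadjusted p-value under 0.05 at 1.28 µM (12.97% of all genes) and again at 8 µM (9.94%), and 4 at 50 µM (15.2%). The limma voom alternative called none either. The genes atp5fa1 and atp5f1b, for the alpha and beta subunits of the catalytic head, had means of 9246 and 9613 normalized counts over all pools and a Log2FC of 0.02 and -0.01 at 50 µM. The gene atp5f1e, for the small epsilon subunit of the central stalk, had counts of 686, 534, 602 and 678 in the control and 789, 764, 807 and 764 at 50 µM. All 4 exposed pools lay above the control pools (Log2FC 0.29 ± 0.08, adjusted p = 0.0651, exact permutation p = 0.0286). The gene was named for its small p at 50 µM, so the permutation test on these same pools is not separate support. The adjusted p crossed the threshold in 3 of the 32 fits with 1 pool left out (0.0467 at the lowest).

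The gene atp5if1a, for the inhibitor that stops the synthase from running backwards, had its highest mean at 50 µM and its lowest Log2FC at 1.28 µM. Its counts were 451, 383, 374 and 508 in the control, 418, 370, 466 and 385 at 1.28 µM and 615, 510, 542 and 522 at 50 µM. The pools at 50 µM lay above all control pools, and those at 1.28 µM lay within the control range except for 1 lower pool. The Log2FC was -0.05 at 1.28 µM and 0.18 and 0.30 ± 0.10 at 20 and 50 µM (adjusted p = 0.134). In a fit on the concentration in µM, atp5if1a (higher, adjusted p = 0.0386) and cox4i2 (lower, adjusted p = 0.0149) passed the test for a trend beside ndufv3. For that fit no share of all genes called is given here, so these calls have no background to be read against. Both atp5if1a and cox4i2 were named partly for their small p at 50 µM. The pools at 50 µM weigh most in that fit, so it is not separate evidence. The membrane subunit gene atp5mj had a Log2FC of 0.29 ± 0.07 at 1.28 µM (adjusted p = 0.0969) and 0.10 at 50 µM, with counts of 844, 736, 883 and 767 in the control and 1125, 933, 953 and 1025 at 1.28 µM. It too was chosen after its values were seen.

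Medians of this size or larger were also found in other gene lists. The 74 cytosolic ribosomal protein genes, a list added after the values were seen, had a median Log2FC of 0.19, 0.16, 0.04 and 0.06 at 1.28, 8, 20 and 50 µM. Without control replicate 2 the medians of these 74 genes were 0.12, 0.10, -0.03 and -0.003. Of these genes, rps27.2 was called at 1.28 µM and rps9 at 8 µM, both higher, where 0.0838% and 0.344% of all genes were called. The 68 mitochondrial ribosomal protein genes had 0.10, 0.08, 0.02 and 0.07 at the same concentrations. Without control replicate 2 they had 0.07, 0.04, -0.02 and 0.035. They had 0 DEGs in limma at any concentration and 22 genes with an unadjusted p-value under 0.05 at 1.28 µM (12.97% of all genes). The 13 respiratory chain genes of mitochondrial DNA had 0.08, 0.15, 0.09 and 0.11 at 1.28, 8, 20 and 50 µM. Without control replicate 2 these 13 genes had 0.06, 0.12, 0.06 and 0.08. Of the latter, ND2 and ND4L, for membrane subunits of complex I, rose at 8 µM with a Log2FC of 0.31 ± 0.06 and 0.27 ± 0.06 (adjusted p = 0.0162 and 0.0379). Of the 13 genes, 11 lay above 0 at 8 µM, while ND3 had -0.09 (adjusted p = 0.751). The 8 µM pools were split: mitochondrially encoded genes took 7.30% of normalized counts in replicate 4 and 8.30% to 8.69% in the others. In the control pools this share was 7.36% to 7.79%. In control replicate 2 the summed counts of each of these 3 lists were the lowest of the 4 control pools as well.

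**Figure D4:**
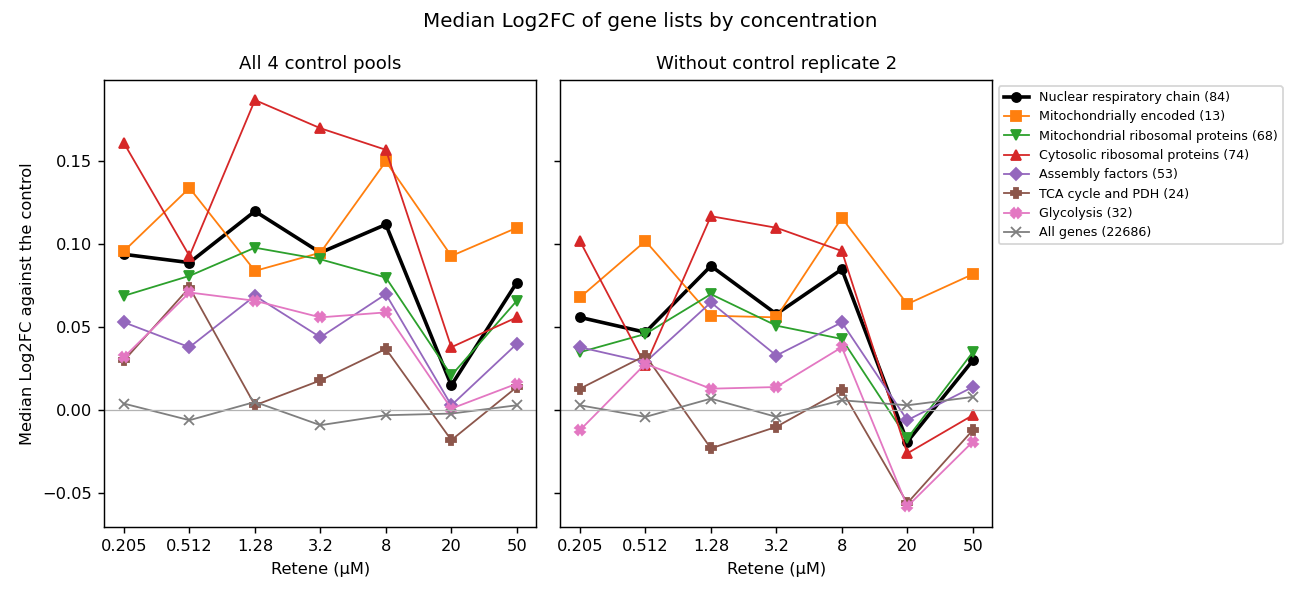
Median Log2FC against the control of the 84 nuclear respiratory chain genes and of 6 other gene lists and all genes, by concentration of retene, with all control pools on the left and without control replicate 2 on the right. The medians of all lists but that of the mitochondrial genes are 0.04 or lower at 20 µM, and without control replicate 2 those of every list shown, all genes apart, lie lower at every concentration.

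Some other lists around the chain held a few DEGs, at concentrations where 0.586% (20 µM) and 2.48% (50 µM) of all genes were called. No test compared these lists with the 84 genes or with all genes. Of 53 assembly factor genes only cox18, which inserts a complex IV subunit into the membrane, was called, with a Log2FC of 0.26 ± 0.07 at 50 µM (adjusted p = 0.0419). The 24 genes of the tricarboxylic acid cycle and pyruvate dehydrogenase had medians between -0.02 and 0.07, and dldh, for the dihydrolipoamide dehydrogenase shared by several dehydrogenase complexes, fell at 50 µM (Log2FC -0.22 ± 0.06, adjusted p = 0.0468). The 32 genes of glycolysis had medians between 0.00 and 0.07 and 0 DEGs in limma, with 2 at an unadjusted p-value under 0.05 at 50 µM (15.2% of all genes). Among 22 regulators of mitochondrial biogenesis and cytochrome c genes, cycsb, for the electron carrier between complexes III and IV, rose at 50 µM (0.31 ± 0.07, adjusted p = 0.0179), and pprc1, for a coactivator of the PGC-1 family, rose at 20 and 50 µM (0.26 ± 0.06 at each, adjusted p = 0.0472 and 0.0198).

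Markers of tissues were present in all groups and some of them differed between groups. All 12 skeletal muscle markers, 7 of 8 heart, 6 of 6 red cell, 5 of 6 neuron and 3 of 4 skin markers were in the table. The summed counts of red cell markers ranged from 14700 to 24200 in the control, with the lowest value in replicate 2, from 24200 to 26700 at 1.28 µM and from 13000 to 20500 at 20 µM. Those of skeletal muscle ranged from 516000, again in control replicate 2, to 571000 in the control and from 532000 to 572000 at 20 µM, and those of neurons from 15600 to 16900 in the control and from 13700 to 14200 at 1.28 µM. There elavl3, which held a large part of that sum, fell (Log2FC -0.29 ± 0.06, adjusted p = 0.0339), while 3 of the 5 neuron markers had a Log2FC above 0. Those of skin ranged from 97400 to 119000 in the control and from 87500 to 95800 at 50 µM, where krt4, which held most of the sum, fell (-0.33 ± 0.07, adjusted p = 0.00363) and 1 of the 3 markers had a Log2FC above 0, and those of heart from 707 to 835 in the control and from 834 to 973 at 50 µM, where tnnt2a rose (0.41 ± 0.08, adjusted p = 0.00424). Of all genes, 0.0838% were called at 1.28 µM and 2.48% at 50 µM. The part of the tissue markers in the respiratory chain values was not tested.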

How the data were processed

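Total RNA of 32 pools was poly(A)-selected and sequenced. Per the labels and the methods of the study, the authors used STAR for alignment (genome build GRCz11), HTSeq for gene counts and DESeq2 for normalization; versions are not given in the sources used here, and neither is the strandedness of the kit. What was deposited is a log2-like value per gene, a variance-stabilized normalized count. Reversing that transformation gave whole reads for 100% of values (tolerance 0.01, largest deviation 0.000742). Symbols came from the RefSeq annotation of a later assembly, used for names and neighbours only (21030 of 22686 genes matched).

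These were tested in limma 3.58.1 (R 4.3.3). A single fit held all 32 pools and the 8 groups, with the prior variance following mean expression. P-values were adjusted by Benjamini-Hochberg over all genes within each concentration (threshold 0.05). The trend used the order of the groups. Summaries used Python 3.11.15, NumPy 2.4.6 and pandas 2.3.3, and exact permutation tests were two-sided. The permutation tests used the same pools as limma and were not adjusted for the number of genes, so they are not separate support. Nothing states how the pools of a group were kept apart beyond their being separate pools, so p-values measure the spread between them.

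The members and lists were chosen with earlier results of these data known. Named genes were ndufv3, ndufb7, each gene called in any test, and the 2 with the smallest p at 50 µM and for the trend in each complex; members named beyond these were chosen after their values were seen. Naming the most and least abundant subunits per coding length was planned and not done, since no lengths were at hand, so levels are not compared between genes. The limma pipeline was run on simulated data in which genes varied independently, so a shift shared by many genes of 1 pool was not covered. Alternatives covered the scale, normalization, filter (mean normalized count of at least 10), voom, a replicate block, thresholds, groups fitted and pools left out. Of the 84 genes, 78 had a mean normalized count of at least 10, and all were tested. The values of 1 of the 84 genes are not reported here; it stays in the counts and medians.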

Additional observations from a re-analysis of the deposited data

Results flagged for a closer look

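Of 136 groups of 4 pools examined with Dixon's test at the 95% level, 9 held a pool far from the other 3, where chance alone would mark about 1 in 20. Control replicate 2 accounts for 5 of them: its median level relative to the control mean was -0.132 over the 84 genes (the other pools lay between 0.037 and 0.043), -0.101 in complex I, -0.149 in complex IV and -0.158 in complex V, and its share of normalized counts on the 84 genes was 0.955% (against 1.051% to 1.054%). These measures overlap, so they describe 1 pool. At 1.28 µM, replicate 2 had 7.66% of normalized counts on mitochondrially encoded genes, against 8.04% to 8.1% in the others.

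The other 3 concern single genes. The count of ndufa6 was 297.2 in 0.205 µM replicate 4, against 328.6 to 333.6. That of cox7a2a was 455.3 in 0.512 µM replicate 3, against 587 to 595.3. That of atp5if1a was 390.2 in 8 µM replicate 2, against 464.8 to 478.5.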

How the results depend on the processing

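The call of ndufv3 at 50 µM and its trend kept their direction and their side of the threshold in every alternative run. Medians of the 84 genes were not compared under voom or the filter. In the alternatives compared, the lean above the control kept its direction, except at 20 µM. There the median fell to -0.019 without control replicate 2, alone or with the other 2 pools that stand apart. The median moved by less than the spread between pools in the alternatives compared. That spread (SD 0.07) is of the same size as the medians, so this is a weak check. With 1 pool left out the median ranged from 0.056 to 0.138, 0.047 to 0.122, 0.087 to 0.148, 0.058 to 0.121 and 0.085 to 0.152 from 0.205 to 8 µM, from -0.019 to 0.029 at 20 µM and from 0.03 to 0.095 at 50 µM.

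Counts of called genes are small and moved more. Except for the trend over the exposed groups, the share of all genes called under each alternative is not given here. These counts therefore cannot show whether the respiratory chain genes moved apart from all genes. At 1.28 µM (1 in the main analysis) the count was 5 after quantile normalization, 2 with adjustment over all 7 concentrations, and 0 with the replicate block, without the 3 pools that stand apart, without the mean-variance trend, with limma voom, with only the groups compared and at an adjusted p under 0.01. At 8 µM (1) it was 0 with only the groups compared. At 20 µM (1) it was 0 without the 3 pools, with only the groups compared and at 0.01. At 50 µM (2) it was 1 in these same settings and with adjustment over all 7 concentrations. Fits of only the groups compared use 8 pools, and thresholds of 0.01 are stricter by construction; for the rest the cause was not tested. Among the 8 groups (2) the count was 4 after quantile normalization, 1 without the mean-variance trend and 1 at 0.01. For the trend (2) it was 1 with the replicate block, without the mean-variance trend and at 0.01, 4 over the exposed groups only, and 3 without the 3 pools, where cox7a2a was lost and ndufa6 and cox5ab were gained. With 1 pool left out, the counts ranged from 0 to 2 at 1.28 µM, 1 to 6 at 8 µM, 0 to 1 at 20 µM, 1 to 3 at 50 µM, 1 to 4 among the groups and 1 to 3 for the trend, and stayed at 0 at 0.205, 0.512 and 3.2 µM.

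No pairing of the pools by replicate number was seen: the correlation of the deviations of same-numbered control and exposed pools ran from -0.403 to 0.331 and exceeded 0.1 in 9 of 28 pairs. The lowest value was that of 8 µM replicate 4 and the highest that of 50 µM replicate 2, both pools that stand apart. Such correlations cannot exclude a pairing. The replicate block gave 3 genes among the 8 groups, with atp5mj added. The share of all genes called in that fit is not given here either.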
